A study of Mus musculus with 8 samples.

Results

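In the embryonic mouse retina, 60 genes of axon guidance and neural adhesion were compared between *Lhx2* CKO and control embryos at E15.5. They were taken by name from the 28432 genes of the count table, as the protein-coding genes of the class 3 to 7 semaphorins, plexins, neuropilins, Slits, Robos, netrins, Unc5 receptors, *Dcc*, contactins 1 to 6, the L1 family (*L1cam*, *Nrcam*, *Nfasc* and *Chl1*), *Dscam*, *Dscaml1*, *Ncam1* and *Ncam2*. The rule goes by gene name and uses no measured value, but these families were chosen with earlier results of these data known. By role they were 26 secreted or transmembrane ligands, 20 receptors and 14 adhesion molecules. The CKO group held 4 embryos of genotype *Lhx2* flox/-; *Hes1* CreERT2/+, and the control group held 4 embryos of genotype *Lhx2* flox/+; *Hes1* CreERT2/+. All 8 embryos also carried the tdTomato reporter *Rosa* ai14/+, and all dams were fed tamoxifen at E11.5, so Cre was active and a floxed *Lhx2* allele was exposed to it in controls as well. CreERT2 expressed from *Hes1* acts in retinal progenitor cells (RPCs), and a neuron lacks *Lhx2* only if it descends from a recombined RPC. Both retinas of 1 embryo formed 1 sample, and the embryos came from 3 litters on 2 days that the sources used here do not assign to samples.

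Growing axons are steered by cues that attract or repel their growth cones. Class 3 semaphorins are secreted and act through neuropilins joined to plexins, transmembrane semaphorins bind plexins directly, Slits repel through Robos, and netrin 1 attracts through Dcc and repels through Unc5 receptors. Contactins and the L1, Dscam and Ncam proteins are surface molecules of the immunoglobulin superfamily by which neurites bundle, keep apart or find their layer. At this stage retinal ganglion cells (RGCs), the retina's projection neurons, send their axons along its inner surface into the optic nerve.

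The libraries held 13955259 to 19099937 counted reads in CKO samples and 13143587 to 15063867 in control samples. Levels are given as normalized counts, which are reads over a size factor for each sample (median of ratios), and genes with at least 20 of them in at least 3 samples were tested with edgeR's quasi-likelihood test on the reads. A gene counted as called (it rose or fell) where its p, adjusted by Benjamini and Hochberg over the 13891 genes tested, was below 0.001. The study used the same cutoff, but with DESeq2, which here called 2390 of these genes where edgeR called 1196. A gene said not to pass was not called by edgeR, and DESeq2 called some of those. The log2FC is CKO over control. *Lhx2*, counted over the whole gene with its undeleted exons, had 2761 ± 143 normalized counts in the CKO and 3332 ± 265 in controls (SD, n = 4 each; edgeR adjusted p = 0.005), which does not check the deletion. CKO replicate 1 and control replicate 3 stood apart from their groups (chi-square per gene 14.0 to 20.8 against the other CKO samples and 12.8 to 15.3 against the other controls, with 3.54 to 7.58 among the rest), and by *Xist* reads CKO replicate 1 and control replicates 1 and 4 were female.

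More of these genes rose than fell. Among the 56 that passed the filter, 13 rose, 3 fell and 40 did not pass the test; over all genes tested, 3.64% rose and 4.97% fell (8.61% called). The 16 calls took in 6 ligands, 4 receptors and 6 adhesion molecules, and the calls that were falls were those of *Sema4d*, *Sema3f* and *Plxnd1*. The median log2FC was 0.33 over the 56 genes and 0.01 over all genes tested, with 43 of the 56 above 0. In 33 of the 56 (58.9%) the CKO and control samples did not overlap, against 33.8% of all genes tested. Together the 60 genes took 0.641%, 0.592%, 0.595% and 0.628% of the counts in CKO replicates 1 to 4, against 0.496%, 0.515%, 0.477% and 0.504% in control replicates 1 to 4, so every CKO sample lay above every control. *Slit3*, *Ntn5*, *Plxnb3* and *Robo4* did not reach the filter. *Slit3* averaged 16.6 ± 5.80 normalized counts in the CKO and 12.6 ± 2.25 in controls, *Plxnb3* 4.99 ± 1.16 and 5.39 ± 3.90, and *Robo4* 17.8 ± 10.1 and 11.8 ± 7.11 (SD, n = 4 each), and *Ntn5* had at most 1.72 in a CKO sample and 0 in all controls.

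**Figure D1:**
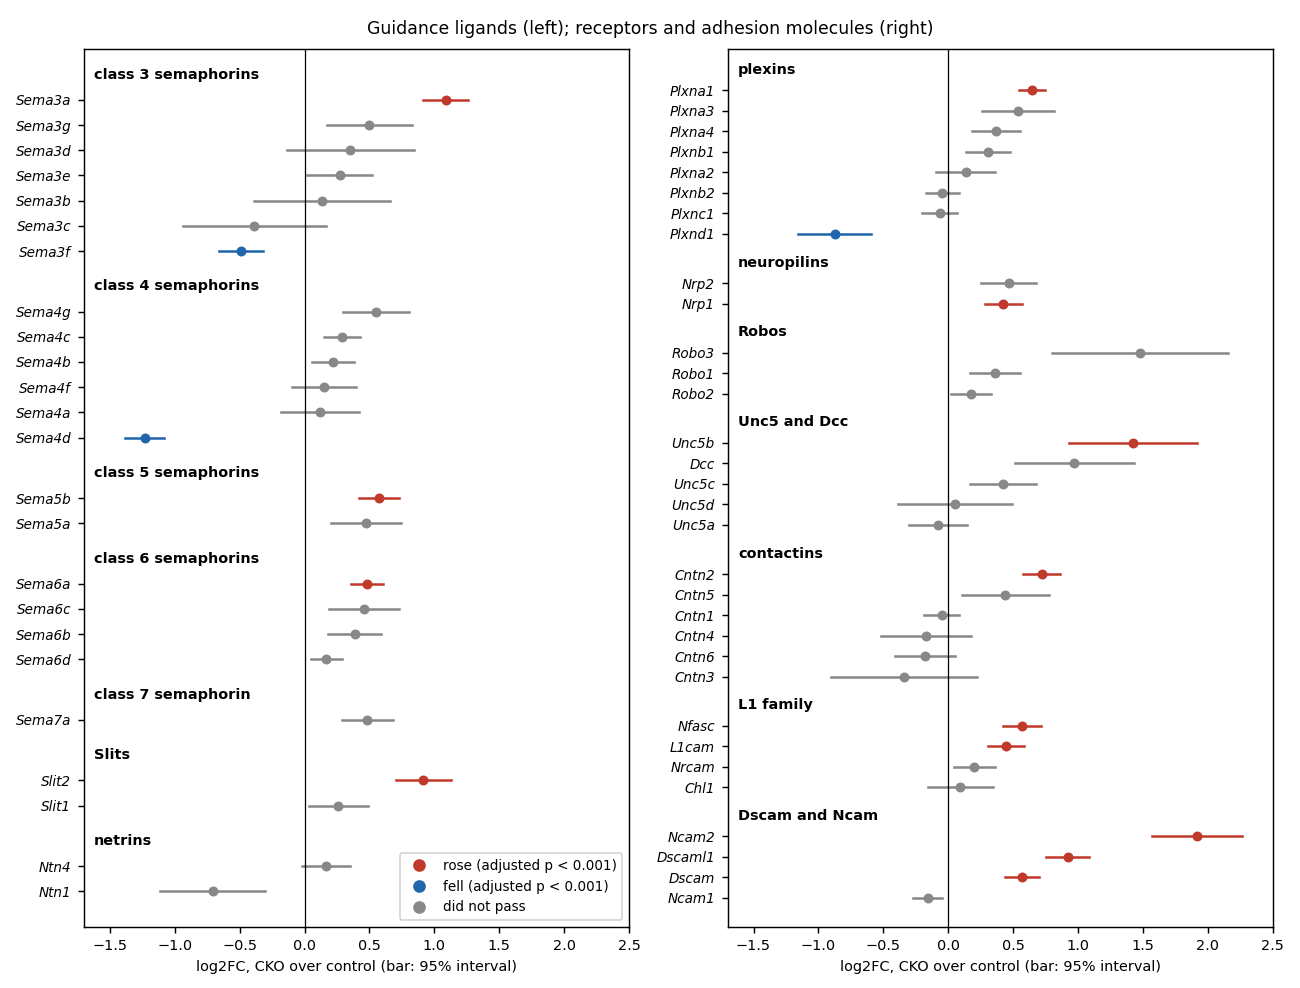
Log2FC, CKO over control (x axis), of the 56 axon guidance and adhesion genes tested, grouped by family, with 95% intervals as bars; red marks genes that rose, blue genes that fell and gray genes that did not pass. Most points lie right of 0, from *Ncam2* at 1.91 on the right to *Sema4d* at -1.23 on the left.

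Upstream sequence is shown for *Ncam2*, which had the largest log2FC, for *Plxnd1*, the receptor gene that fell, and for *Robo3*, which did not pass the test but whose upstream sequence holds the homeodomain core TAATTA. They are the bases before the RefSeq start site on the strand of the gene, 5′ to 3′, from RefSeq on GRCm38.p6, at chr16:81200447-81200696 (plus strand) for *Ncam2*, chr6:115995006-115995255 (minus) for *Plxnd1* and chr9:37433247-37433425 (minus) for *Robo3*. The *Robo3* sequence stops where the longest annotated transcript begins, and capitals mark TAATTA.
Ncam2: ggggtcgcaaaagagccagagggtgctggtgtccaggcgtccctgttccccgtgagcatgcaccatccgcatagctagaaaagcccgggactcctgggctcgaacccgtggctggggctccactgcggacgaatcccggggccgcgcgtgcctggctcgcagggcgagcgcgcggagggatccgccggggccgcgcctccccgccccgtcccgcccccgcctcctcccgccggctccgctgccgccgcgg
Plxnd1: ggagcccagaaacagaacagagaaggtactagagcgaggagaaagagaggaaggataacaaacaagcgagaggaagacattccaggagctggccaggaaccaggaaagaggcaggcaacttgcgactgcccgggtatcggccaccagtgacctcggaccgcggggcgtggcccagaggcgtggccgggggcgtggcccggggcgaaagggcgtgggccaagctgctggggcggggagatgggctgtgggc
Robo3: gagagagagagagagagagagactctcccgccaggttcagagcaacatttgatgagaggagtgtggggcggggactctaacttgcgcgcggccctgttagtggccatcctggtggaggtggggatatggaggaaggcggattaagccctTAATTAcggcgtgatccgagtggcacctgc
*Ncam2* had a GC content of 75.2% over these bases, *Plxnd1* 64.8% and *Robo3* 58.1%. In *Robo3* the core began at position -101 from the start site. Over windows of 250 bases before to 50 after the start site, 49 of the 60 genes matched the RefSeq table, and TAATTA, which is the same on both strands, stood in those of *Cntn4* and *Robo3* (4.08% of 49) against 6.12% of all 27025 genes in the table. Neither gene was called, and no TAATTA stood in the windows of the 10 genes that rose and the 2 that fell with a match. The E-box CAGCTG, also its own reverse complement, stood in 12 of the 49 (24.5%) against 18.3% of all genes, among them *Nfasc*, which rose, and *Sema4d*, which fell. A gene counted where any of its windows held the motif, and the 49 genes had 68 windows, against 32851 for the 27025. The members thus had more windows per gene, and the shares of either motif are not on the same base. These matches describe the letters of the windows and were not tested as binding sites.

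Among the guidance ligands, 4 of the 24 tested rose (16.7%), 2 fell (8.33%) and 18 did not pass, with a median log2FC of 0.28. Over all genes tested, 3.64% rose and 4.97% fell. Of the class 3 semaphorins, 1 rose and 1 fell. *Sema3a*, a repellent that binds neuropilin 1 with A-type plexins (ENSMUSG00000028883; chromosome 5, 13125414 to 13602565 of GRCm38), had 1113, 1050.2, 994 and 1082 normalized counts in CKO replicates 1 to 4, against 433, 560.3, 492 and 514 in control replicates 1 to 4. The lowest CKO sample was well above the highest control, and *Sema3a* rose 2.12-fold (log2FC 1.09, 95% interval 0.91 to 1.26, edgeR adjusted p = 3.2e-06). *Sema3f*, the class 3 ligand that favors neuropilin 2 (chromosome 9, 107681500 to 107710475 of GRCm38), had 895, 747, 779 and 745 normalized counts in the CKO, against 1164, 1117, 1172 and 1001 in controls. It fell without overlap of the genotypes (log2FC -0.49, 95% interval -0.66 to -0.32, edgeR adjusted p = 6.4e-04). The call of *Sema3f* was lost in 6 of 8 fits with 1 sample left out (edgeR adjusted p = 0.0016 to 0.0046) and with embryo sex as a covariate. The ratio of *Sema3a* to *Sema3f*, both per kb of exon, was 0.466, 0.527, 0.478 and 0.544 in CKO replicates 1 to 4, against 0.139, 0.188, 0.157 and 0.193 in control replicates 1 to 4, a pair chosen after its values were seen and given with no test. *Sema3f* thus remained the more abundant of the pair per length in every sample. The other 5 class 3 genes did not pass, with log2FC between -0.39 (*Sema3c*) and 0.50 (*Sema3g*).

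*Sema4d*, a transmembrane ligand of plexin B1 that is also cleaved from the surface (ENSMUSG00000021451; chromosome 13, 51685529 to 51793747 of GRCm38), had the most negative log2FC of the 56 genes. It had 742, 912, 869 and 921 normalized counts in CKO replicates 1 to 4, against 1903, 1981, 2168 and 2029 in control replicates 1 to 4. No CKO sample reached 1000, and *Sema4d* fell to 0.426 of the control level (log2FC -1.23, 95% interval -1.38 to -1.08, edgeR adjusted p = 4.6e-07), at rank 30 of all genes tested by p-value. It was the class 4 gene that was called. *Sema4c*, a ligand of plexin B2 and the ligand gene with the highest counts per kb of exon here (358 in the CKO, 294 in controls), had 1752, 1658, 1586 and 1579 normalized counts in the CKO and 1242, 1311, 1496 and 1361 in controls, and did not pass (log2FC 0.29, edgeR adjusted p = 0.0052). Its exons overlap a transcript on the other strand over 7.27% of their bases, and reads there could not be told apart. Of the remaining class 4 genes, *Sema4a*, *Sema4b*, *Sema4f* and *Sema4g* did not pass, with log2FC of 0.12 to 0.55.

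Among the class 5 and 6 semaphorins, transmembrane proteins that in the mouse retina are known for confining neurites to their layers, all 6 log2FC were above 0 and 1 gene of each class rose. *Sema5b* (chromosome 16, 35541145 to 35664732 of GRCm38) had 918, 839, 853 and 822 normalized counts in the CKO, against 585, 576, 634 and 517 in controls. *Sema6a* had 2399.9, 2257, 2154 and 2487 in the CKO, against 1676, 1681, 1729.6 and 1602 in controls. Neither pair of genotypes overlapped, and both genes rose (*Sema5b* log2FC 0.57, 95% interval 0.42 to 0.73, edgeR adjusted p = 1.2e-04; *Sema6a* log2FC 0.48, 95% interval 0.36 to 0.60, edgeR adjusted p = 8.5e-05). *Sema6c*, second among the ligand genes in counts per kb averaged over all samples but below both *Sema4c* and *Sema4d* in controls, had 2112, 1549.8, 1512 and 1806 normalized counts in the CKO and 1317, 1149, 1526 and 1109.8 in controls. There CKO replicate 3 lay just below control replicate 3, and the gene did not pass (log2FC 0.46, 95% interval 0.19 to 0.73, edgeR adjusted p = 0.013). Summed over class 6, levels per kb were 643 to 776 in the CKO and 488 to 584 in controls.

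*Slit2*, a secreted repellent that binds Robo1 and Robo2 and keeps retinal axons on course at the mouse optic chiasm (chromosome 5, 47983138 to 48307733 of GRCm38), had 2969, 2823, 2991 and 3105 normalized counts in CKO replicates 1 to 4, against 1781, 1743, 1241 and 1537 in control replicates 1 to 4. It rose 1.89-fold with no overlap (log2FC 0.92, 95% interval 0.70 to 1.13, edgeR adjusted p = 4.6e-05). Among controls the lowest value was that of replicate 3. *Slit1* did not pass (log2FC 0.26, 95% interval 0.03 to 0.49, edgeR adjusted p = 0.076). *Ntn1* encodes netrin 1, which in the mouse guides RGC axons out of the eye at the optic disc. It had 54.8, 58.6, 37.2 and 40.6 normalized counts in the CKO and 96.7, 78.1, 74.2 and 66.8 in controls, and although the genotypes did not overlap it did not pass (log2FC -0.71, 95% interval -1.12 to -0.30, edgeR adjusted p = 0.013). *Ntn4*, whose product lies in basement membranes, had a log2FC of 0.16 (95% interval -0.02 to 0.35).

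**Figure D2:**
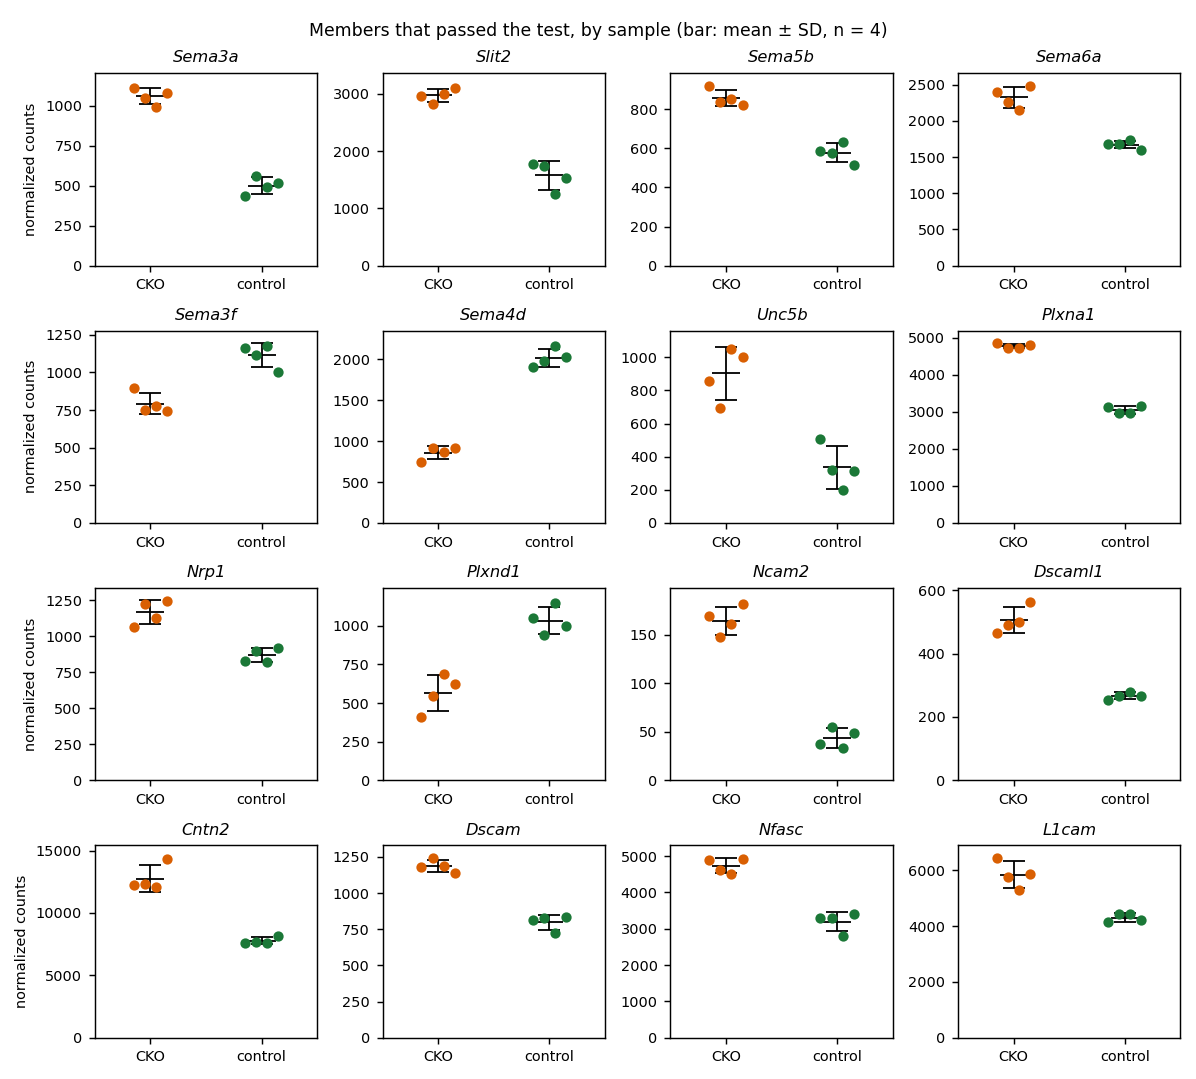
Normalized counts (y axis, from 0) of the 16 genes that rose or fell, with 1 point per sample, CKO left in orange and control right in green, and black bars at the mean ± SD (n = 4). In every panel all CKO points lie on 1 side of all control points, from *Ncam2* at 147 to 181 in the CKO and 33.1 to 55.2 in controls up to *Cntn2* at 12106 to 14336 and 7558 to 8174.

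Of the 18 receptor genes tested, 3 rose (16.7%), 1 fell (5.56%) and 14 did not pass, with a median log2FC of 0.37. Over all genes tested, 3.64% rose and 4.97% fell, so the share of falls was near that of all genes. The called receptor genes were 2 plexins, a neuropilin and an Unc5 receptor. *Plxna1*, the signaling subunit that neuropilin 1 recruits for class 3 semaphorins (chromosome 6, 89316314 to 89362620 of GRCm38), had 4856, 4735, 4726 and 4812 normalized counts in CKO replicates 1 to 4, against 3129, 2961, 2979 and 3175 in control replicates 1 to 4. It had the smallest p-value of the receptor genes and rose with a narrow interval (log2FC 0.65, 95% interval 0.55 to 0.74, edgeR adjusted p = 2.1e-06). Its exons share 10.7% of their bases with the antisense gene *Gm26811*, whose reads could not be separated. *Nrp1*, the neuropilin that binds Sema3a and also vascular endothelial growth factor (chromosome 8, 128358604 to 128503363 of GRCm38), had 1064, 1222, 1128 and 1243 normalized counts in the CKO, against 828, 899.8, 823 and 918 in controls. It rose as well (log2FC 0.43, 95% interval 0.29 to 0.56, edgeR adjusted p = 4.4e-04) and with *Sema3a* and *Plxna1* makes up a ligand and both parts of its receptor, each called as higher in the CKO. The call of *Nrp1* was lost in 4 of 8 fits with 1 sample left out (edgeR adjusted p = 0.0014 to 0.0023). Bulk samples do not show which cells expressed these genes.

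*Plxnd1*, a receptor of Sema3e best known from endothelial cells (chromosome 6, 115954811 to 115995005 of GRCm38, minus strand), had 409, 544, 687 and 620 normalized counts in CKO replicates 1 to 4, against 1052, 938, 1147 and 996 in control replicates 1 to 4. All CKO samples were below all controls, CKO replicate 1 being lowest, and the gene fell (log2FC -0.88, 95% interval -1.15 to -0.60, edgeR adjusted p = 3.7e-04). Its call was lost in 4 of 8 fits with 1 sample left out (edgeR adjusted p = 0.0011 to 0.0018). Of 9 endothelial marker genes tested, *Cldn5* (log2FC -1.55, edgeR adjusted p = 1.9e-04) and *Kdr* (log2FC -0.48, edgeR adjusted p = 2.6e-04) fell, while 7, among them *Pecam1*, *Cdh5* and *Tie1*, did not pass, and the summed level of the list was 2738 to 3732 normalized counts in the CKO and 4473 to 4802 in controls. Of that sum *Kdr*, which RPCs also express, alone gave 2931 ± 305 in the CKO and 4104 ± 142 in controls, and the part of these markers in the fall of *Plxnd1* was not tested. Its ligand gene *Sema3e* did not pass (log2FC 0.27, 95% interval 0.02 to 0.52).

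The receptor genes with the highest counts per kb of exon were *Plxnb2* (707 in the CKO, 731 in controls) and *Plxnb1* (607 and 492), both receptors of class 4 semaphorins. *Plxnb2* had 5228, 5328, 5598 and 5678 normalized counts in the CKO and 6107, 5723, 5221 and 5519.8 in controls. Its genotypes overlapped, with a log2FC near 0 (log2FC -0.05, 95% interval -0.17 to 0.08, edgeR adjusted p = 0.57). *Plxnb1*, the receptor of Sema4d, had 6671, 5319, 5566 and 5746 normalized counts in the CKO and 4698, 5090.3, 4553 and 4552 in controls. Every CKO sample was above every control, but the gene did not pass (log2FC 0.31, 95% interval 0.14 to 0.47, edgeR adjusted p = 0.01). DESeq2 called it at the same cutoff (log2FC 0.31, DESeq2 adjusted p = 5.9e-04).

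*Unc5b*, a netrin receptor that mediates repulsion and is also known from endothelial tip cells (chromosome 10, 60762593 to 60831581 of GRCm38), had 859, 696, 1050.2 and 1004 normalized counts in CKO replicates 1 to 4, against 509, 321, 196 and 315 in control replicates 1 to 4. Both groups were spread widely, yet the lowest CKO sample exceeded the highest control and the gene rose 2.68-fold (log2FC 1.42, 95% interval 0.93 to 1.91, edgeR adjusted p = 6.4e-04). The call was lost in 5 of 8 fits with 1 sample left out (edgeR adjusted p = 0.0013 to 0.0033). *Unc5c* did not pass (log2FC 0.42, 95% interval 0.17 to 0.67, edgeR adjusted p = 0.016), nor did *Unc5a* (log2FC -0.08) or *Unc5d* (log2FC 0.05), whose intervals include 0. *Dcc*, the attractive netrin receptor, had 2761, 2541, 2389 and 3017 normalized counts in the CKO, against 1564, 1685, 699.8 and 1508 in controls. Control replicate 3 was the lowest of all 8 samples, and *Dcc* did not pass with it (log2FC 0.97, 95% interval 0.52 to 1.43, edgeR adjusted p = 0.0042) but did without it (log2FC 0.76, edgeR adjusted p = 6.2e-05).

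*Robo3*, which in the mouse lets commissural axons cross the midline by holding back the response to Slits, had 419, 165, 141 and 225 normalized counts in CKO replicates 1 to 4, against 74.5, 104, 83.3 and 83.0 in control replicates 1 to 4. CKO replicate 1 was far above the other CKO samples, and despite the absence of overlap the gene did not pass (log2FC 1.48, 95% interval 0.80 to 2.16, edgeR adjusted p = 0.0037). *Robo1* had a log2FC of 0.36 (95% interval 0.17 to 0.55, edgeR adjusted p = 0.0084) and *Robo2*, the main Robo of mouse RGC axons, 0.17 (95% interval 0.02 to 0.33, edgeR adjusted p = 0.079). Neither passed, and per kb of exon *Robo2* (285 in the CKO, 253 in controls) was the most abundant of the Robos. *Sema4g* and *Plxna3*, a receptor of class 3 semaphorins, shared the high value of CKO replicate 1. *Sema4g* had 2293, 1551, 1605 and 1648 normalized counts in the CKO and 1200.2, 1248, 1267 and 1147 in controls (log2FC 0.55, edgeR adjusted p = 0.0036). *Plxna3* had 4588, 2985, 3028 and 3145 in the CKO and 2390.3, 2559.7, 2273 and 2295 in controls (log2FC 0.54, edgeR adjusted p = 0.0075). Without CKO replicate 1 their log2FC were 0.39 and 0.35, and both passed (edgeR adjusted p = 3.1e-04 for *Sema4g* and 8.2e-04 for *Plxna3*). The sample values of *Dcc*, *Robo3*, *Sema4g*, *Plxna3* and *Ntn1* were picked for printing after they had been seen.

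**Figure D3:**
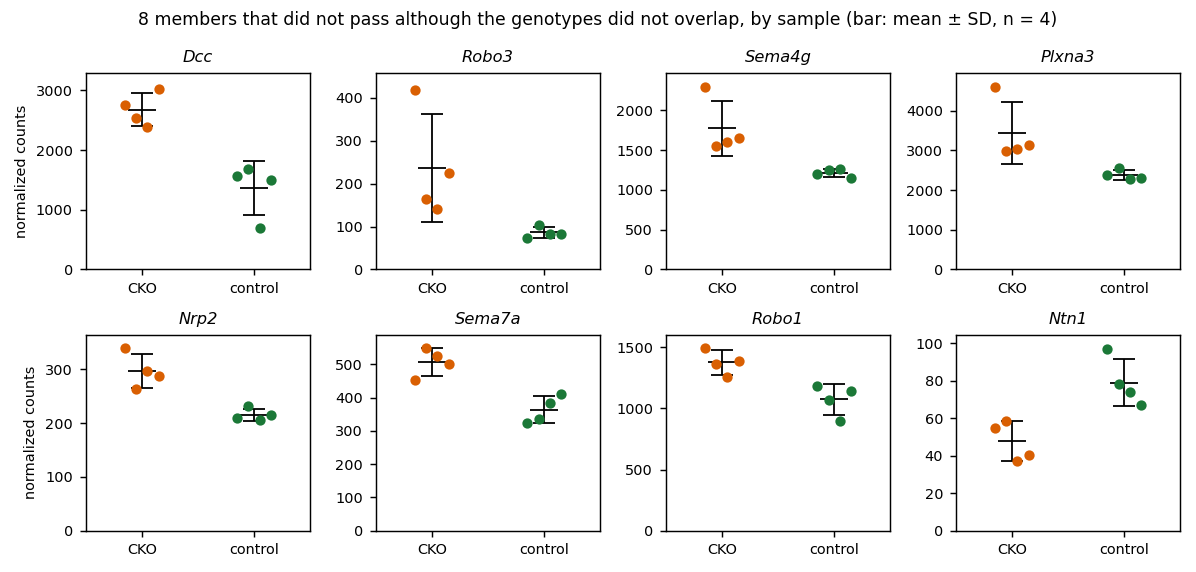
Normalized counts (y axis, from 0) of 8 genes that did not pass the test although their genotypes did not overlap, with 1 point per sample, CKO left in orange and control right in green, and black bars at the mean ± SD (n = 4). Control replicate 3 of *Dcc* (699.8) and CKO replicate 1 of *Robo3* (419), *Sema4g* (2293) and *Plxna3* (4588) lie far from the rest of their groups.

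Of the 14 adhesion genes, all of which were tested, 6 rose (42.9%, against 3.64% of all genes tested) and 8 did not pass, with a median log2FC of 0.32. The largest log2FC of the 56 genes was that of *Ncam2*, which encodes a homophilic adhesion molecule known from olfactory axons (ENSMUSG00000022762; chromosome 16, 81200697 to 81626828 of GRCm38). It had 169, 147, 161 and 181 normalized counts in CKO replicates 1 to 4, against 37.3, 55.2, 33.1 and 48.6 in control replicates 1 to 4. The rise was 3.77-fold (log2FC 1.91, 95% interval 1.57 to 2.26, edgeR adjusted p = 8.4e-06). *Ncam1*, its relative and a general surface molecule of neurons and progenitors, had 6702, 6778, 6453 and 6838 normalized counts in the CKO, against 7139.8, 7633, 7318 and 7815 in controls. It lay lower in every CKO sample and did not pass (log2FC -0.16, 95% interval -0.27 to -0.04, edgeR adjusted p = 0.035). Per kb of exon *Ncam1* was far more abundant, and the ratio of *Ncam2* to *Ncam1* was 0.0193, 0.0166, 0.0191 and 0.0203 in CKO replicates 1 to 4, against 0.00399, 0.00553, 0.00346 and 0.00476 in control replicates 1 to 4, again a pair chosen after its values were seen.

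Both Dscam genes rose. Their products are homophilic molecules that in the mouse retina keep neurites and cell bodies of a type apart. *Dscaml1* (chromosome 9, 45426628 to 45753712 of GRCm38) had 466, 490.2, 501 and 562 normalized counts in the CKO, against 255, 268, 279.7 and 266 in controls (log2FC 0.92, 95% interval 0.75 to 1.09, edgeR adjusted p = 7.9e-06). *Dscam* (chromosome 16, 96590840 to 97170752 of GRCm38) had 1182, 1239.7, 1185 and 1135 in the CKO, against 811, 826, 723 and 837 in controls (log2FC 0.57, 95% interval 0.44 to 0.70, edgeR adjusted p = 3.9e-05). The samples of each gene lay close together within a genotype and far apart between them, and the interval of *Dscaml1* lay wholly above that of *Dscam*, which is no test of the difference.

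*Cntn2*, also called TAG-1, is a lipid-anchored molecule of early axons (chromosome 1, 132509427 to 132543256 of GRCm38). Per kb of exon it had the highest level of the 60 genes in the CKO (1371 normalized counts) and was next to *Ncam1* in controls (834, with 863 for *Ncam1*). It had 12239.5, 12347, 12106 and 14336 normalized counts in CKO replicates 1 to 4, against 7558, 7676, 7622 and 8174 in control replicates 1 to 4, with CKO replicate 4 above the other CKO samples, and it rose (log2FC 0.72, edgeR adjusted p = 1.6e-05). It was the contactin that was called. *Cntn5*, with a log2FC of 0.44 (95% interval 0.10 to 0.77, edgeR adjusted p = 0.047), did not pass, and for *Cntn1*, *Cntn3*, *Cntn4* and *Cntn6* the log2FC was between -0.34 and -0.05, with intervals that include 0. Of the L1 family, whose members bind contactins and anchor to the axonal cytoskeleton, *Nfasc* (chromosome 1, 132564690 to 132741797 of GRCm38) had 4883, 4621, 4516 and 4924 normalized counts in the CKO, against 3295, 3289, 2801 and 3408 in controls. *L1cam*, needed for the bundling of axons (chromosome X, 73853778 to 73896105 of GRCm38), had 6442, 5772, 5278 and 5867 in the CKO, against 4137, 4434, 4423 and 4222 in controls. Both rose without overlap (*Nfasc* log2FC 0.57, 95% interval 0.42 to 0.71, edgeR adjusted p = 8.4e-05; *L1cam* log2FC 0.44, 95% interval 0.30 to 0.58, edgeR adjusted p = 3.6e-04), while *Nrcam* (log2FC 0.20, edgeR adjusted p = 0.048) and *Chl1* (log2FC 0.09, edgeR adjusted p = 0.57) did not pass. The call of *L1cam* was lost in 5 of 8 fits with 1 sample left out (edgeR adjusted p = 0.0013 to 0.0026). Summed per kb, the L1 family gave 1363 to 1539 in the CKO and 1056 to 1146 in controls, whereas for the Dscam and Ncam genes together, in which *Ncam1* dominates, the genotypes overlapped (949.9 to 997 and 948 to 1031).

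**Figure D4:**
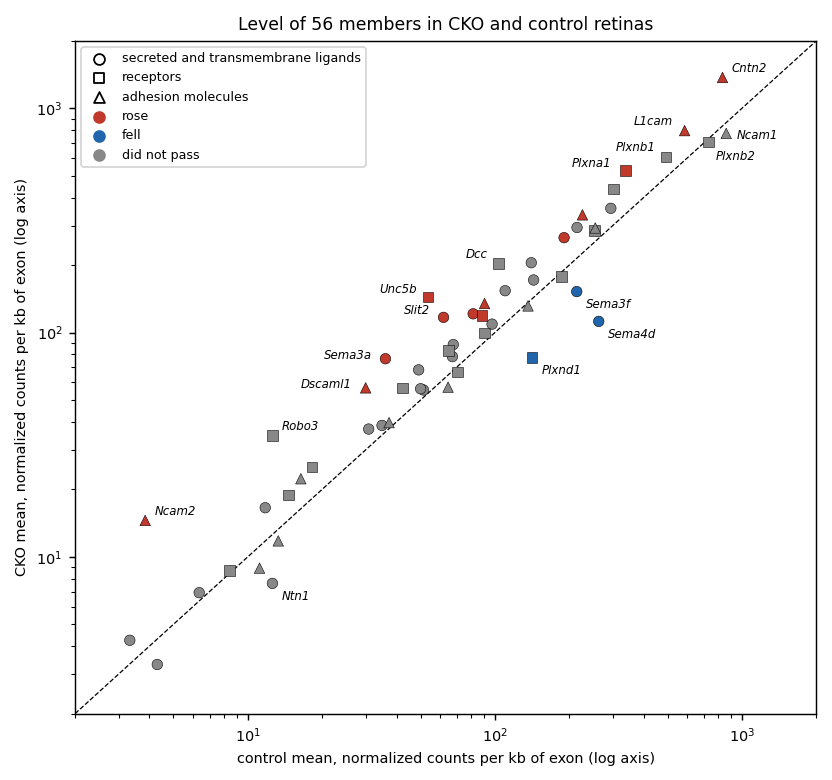
Mean level in CKO (y axis) and control (x axis) retinas of the 56 genes tested, in normalized counts per kb of exon on log axes, with circles for ligands, squares for receptors and triangles for adhesion molecules; red genes rose, blue genes fell, gray genes did not pass, and the dashed line marks equal levels. *Sema3c* (3.31 in the CKO, 4.30 in controls) and *Sema3d* (4.25 and 3.33) lie lowest and *Cntn2* (1371 and 834) lies highest on the CKO axis, and *Ncam2* lies farthest above the line.

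The other genes of axon guidance were a list of 70 that includes further ligands, receptors, signaling partners and cytoskeletal effectors. They gave 16 rises, 1 fall (3.64% and 4.97% over all genes tested) and 51 genes that did not pass among 68 tested, with a median log2FC of 0.18. The smallest p-values were those of *Rgmb* and *Rgma*, membrane-anchored ligands of neogenin (log2FC 0.75, edgeR adjusted p = 3.4e-05, and log2FC 0.81, edgeR adjusted p = 4.9e-05). *Draxin*, a secreted ligand of Dcc (log2FC 0.45, edgeR adjusted p = 7.4e-05), *Dpysl5*, a collapsin response mediator (log2FC 0.45, edgeR adjusted p = 9.4e-05), and *Limk2*, a kinase that acts on cofilin (log2FC 0.34, edgeR adjusted p = 1.8e-04), also rose. The gene that fell was *Mical1*, an oxidase of actin that acts downstream of semaphorins (log2FC -0.42, edgeR adjusted p = 5.8e-04), and its call was lost in 7 of 8 fits with 1 sample left out (edgeR adjusted p = 0.0011 to 0.0033), as was that of *Limk2* in 3 (edgeR adjusted p = 0.0011 to 0.0012). In the same 8 fits 5 to 22 genes of the list rose, with 9 without control replicate 4, 8 without CKO replicate 3, 7 without control replicate 1, 6 without control replicate 2 and 5 without CKO replicate 2 or CKO replicate 4. Rises over all genes moved as well, from 505 of 13891 with all samples to 264 of 13825 without CKO replicate 4. They numbered 707 of 13886 without control replicate 3, where 22 genes of the list rose. Of 21 genes listed as partners of the contactins and the L1 family, 20 were tested, with a median log2FC of 0.32, and 17 did not pass. *Ptprz1* (log2FC 0.58, edgeR adjusted p = 3.7e-04), a receptor phosphatase that binds contactins, and *Ncan* (log2FC 0.52, edgeR adjusted p = 3.0e-04), a proteoglycan that binds L1, rose. *Dab1* (log2FC -0.51, edgeR adjusted p = 7.8e-04) fell, but it is an adaptor of reelin signaling and nothing here shows that it binds either family.

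Marker genes of retinal cell classes also differed between the genotypes. Of 17 RGC markers, 9 rose and 8 did not pass, with a median log2FC of 0.50 and a summed level of 78863 to 84900 normalized counts in the CKO and 57141 to 64756 in controls. DESeq2 called 14 of the 17, all as rises. Over all genes tested, edgeR called 3.64% and DESeq2 8.34% as rises. Of 17 RPC and cell cycle genes, 13 fell, 1 rose and 3 did not pass, with a median log2FC of -0.57 and a summed level of 67372 to 79779 in the CKO and 122427 to 136719 in controls. DESeq2 called 15 of these 17, 1 of them as a rise. Falls over all genes tested were 4.97% with edgeR and 8.87% with DESeq2. In these bulk samples a change in the number of cells of a type and a change in RNA per cell cannot be told apart, and the part of either marker change in the rises and falls of the guidance genes was not tested. Among photoreceptor precursor genes 1 of 8 tested rose (*Neurod4*), and among amacrine and horizontal cell genes 1 of 10 (*Lhx1*), with summed levels that overlapped for photoreceptors (13678 to 15204 in the CKO, 12672 to 14164 in controls) and for amacrine and horizontal cells (7005 to 7489 and 5921 to 7033). Of 12 forebrain genes, several of which the retina also expresses, 9 were tested and *Rfx4*, *Helt*, *Otp* and *Sim1*, transcription factors, rose to levels far above those of controls. *Rfx4* had 125 to 184 normalized counts in the CKO and 1.01 to 4.57 in controls, *Helt* 58.0 to 74.7 and 0 to 1.01, *Otp* 74.1 to 203 and 0 to 5.03, and *Sim1* 10.9 to 55.6 and 0 to 1.04. *Tbr1* had 25.2 to 103 in the CKO and 5.06 to 10.4 in controls and did not pass (edgeR adjusted p = 0.0033). The summed level of the list, most of it from *Barhl2*, *Dlx1* and *Dlx2*, was 2850.3 to 3195 in the CKO and 2385 to 2491 in controls. The part of these genes in the result was not tested.

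Markers of tissue next to the retina were read in the same samples. Of the pigment epithelium list 6 of 10 genes were tested and 5 had a log2FC below 0 (-0.0087 for *Mitf*), with a median of -1.22 over the 6. The pigment gene *Pmel* fell (37.3 to 55.8 normalized counts in the CKO and 115 to 202 in controls), and DESeq2 called 3 genes of the list as lower. *Dct*, *Tyrp1* and *Tyr*, enzymes of pigment synthesis, did not pass with edgeR, with log2FC of -2.05, -1.52 and -0.92 and no overlap between the genotypes. *Rlbp1*, which glia of the retina also express, rose (393 to 508 in the CKO and 118 to 216 in controls). The summed level of the list was 553 to 1028 in the CKO and 452 to 587 in controls and included *Rlbp1* and, in CKO replicate 4, 380 counts of *Ttr*, which had at most 19.9 in any other sample. *Rpe65* had at most 1 read in any sample. Lens genes summed to 64.6 to 139 in the CKO and 45.6 to 78.5 in controls with 2 of 9 tested, and periocular mesenchyme genes to 271 to 585 and 207 to 289.5 with 3 of 10 tested, of which *Col1a2* fell. The 6 blood, 10 macrophage and 6 glial genes tested did not pass with edgeR or DESeq2 (4 glial genes and none of the others had an unadjusted edgeR p below 0.05), and of the lens genes DESeq2 called 1 and edgeR 0 (1 at an unadjusted p below 0.05). Summed levels of blood, macrophage and glial genes overlapped (609 to 1924, 775 to 1027 and 8809 to 10384 in the CKO, against 388 to 2443, 927 to 1094 and 9484 to 10771 in controls). The part of these tissues in the result was not tested.

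**Figure D5:**
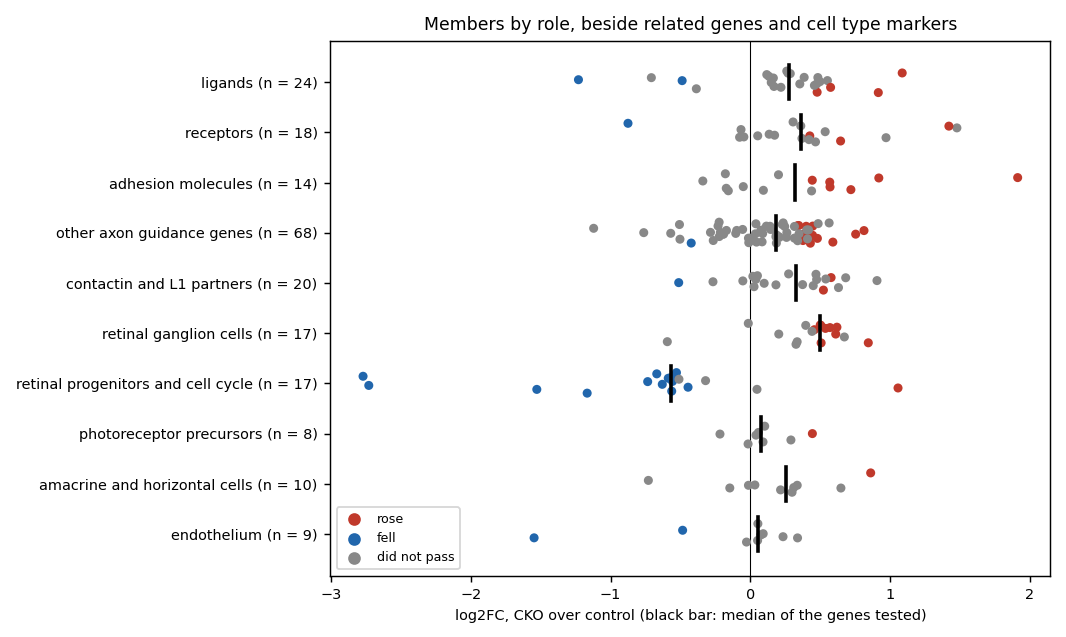
Log2FC, CKO over control (x axis), of each gene tested in the 3 roles (top rows) and in 7 lists of related genes and cell markers, 1 point per gene, with the median of each row as a black bar; red genes rose, blue genes fell and gray genes did not pass. The medians of ligands (0.28), receptors (0.37) and adhesion molecules (0.32) lie between those of the other axon guidance genes (0.18) and the RGC markers (0.50), and that of the RPC and cell cycle genes lies at -0.57.

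How many genes were called depended on the test. DESeq2 called 23 rises and 3 falls among the 56 genes (over all genes it called 8.34% as rises and 8.87% as falls). *Sema4c*, *Sema4g*, *Sema5a*, *Sema6c*, *Sema7a*, *Plxna3*, *Plxnb1*, *Nrp2*, *Robo1* and *Robo3* rose by DESeq2 and were not called by edgeR. Without control replicate 3 and CKO replicate 1, edgeR called 21 rises and 3 falls (7.62% and 7.76% of all genes), and with no filter on low counts it called 22 rises and 3 falls among the 60 genes (3.39% and 3.84% of all genes). With 1 sample left out in turn, *Sema3f*, *Unc5b*, *L1cam*, *Plxnd1* and *Nrp1* lost their calls in 4 to 6 of the 8 fits (edgeR adjusted p = 0.00112 to 0.00458 there), whereas the other 11 calls held in every such fit.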

How the data were processed

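Poly(A) RNA of the retinas was sequenced by the authors from 1 end in 50 cycles, with a kit that does not record strand, aligned to mm10 with TopHat2 and counted per gene with HTSeq (per the submitters' processing notes and the paper, which give no versions that could be used here). The values used are the deposited raw counts of reads per gene, not normalized and not pooled, in 8 samples grouped by genotype. Gene positions and exon lengths come from GENCODE M21 (GRCm38), where 28232 of 28432 gene IDs and all 60 members were found. Exons of 15 members overlap another gene, by over 7% of their bases in *Plxna1*, *Sema4c* and *Ntn5*. Counts were tested with edgeR 4.0.16 in R 4.3.3 (quasi-likelihood, TMM scaling, genotype as the only term) at a Benjamini-Hochberg adjusted p below 0.001 over all genes tested. Intervals are at 95% and treat samples as the replicates. Embryos are separate animals, but litter and day could not enter the test. In simulated data with these depths and spreads, 99 genes changed by 1 on the log2 scale and 99 by 0.5 among 13757. Of these, 70.7% and 30.3% were called. Far fewer genes changed there than the 1196 called in the data, which makes the adjusted cutoff harder to reach in the simulation. These shares therefore do not give the sensitivity of the test on the data.

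The members and lists were chosen with earlier results of these data known. Sample values are given for the called members of each role (up to 6 in each direction) and for the 2 with the highest counts per kb, and up to 5 of the other axon guidance genes with the smallest p are named in each direction. Alternatives were DESeq2 1.42.0, limma voom 3.58.1, other size factors, other filters, a cutoff of 0.05, 1 surrogate variable (sva 3.50.0), embryo sex, a replicate block and leaving out samples. Leaving out control replicate 3 with CKO replicate 1 was chosen after seeing the data.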

Additional observations from a re-analysis of the deposited data

Results flagged for a closer look

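In 7 of the 112 groups of 4 samples examined (56 genes in 2 genotypes), 1 sample stood apart by Dixon's test at 95%, which chance does in about 1 in 20 groups. Among ligands, *Sema4g* was highest in CKO replicate 1 (2293 normalized counts, with 1551 to 1648 in the other CKO samples), and *Sema3c* was lowest in control replicate 2 (20.8, with 33.2 to 35.4 in the other controls). Among receptors, *Plxna3* was highest in CKO replicate 1 (4588, with 2985 to 3145 in the others), *Plxna4* was highest in CKO replicate 3 (281, with 261 to 262 in the others), and *Unc5c* was lowest in control replicate 3 (619.9, with 859 to 887 in the other controls). Among contactins, *Cntn1* was lowest in CKO replicate 1 (1095, with 1281 to 1303 in the others), and *Cntn2* was highest in CKO replicate 4 (14336, with 12106 to 12347 in the others). CKO replicate 1 gave 3 of the 7. Of the 56 genes, 21 were highest among the CKO samples in CKO replicate 1, and 19 were lowest among controls in control replicate 3.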

How the results depend on the processing

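Under 18 alternatives for each of the 56 genes, 938 of 1008 log2FC values kept their direction and their side of the cutoff, 27 lost a call, 36 gained one and 7 changed sign. The cutoff of 0.05 is not among these 18 and is given by its counts below. The 7 sign changes were all in genes that were not called: *Sema3b* without control replicate 1 (-0.016; range -0.016 to 0.34 over the fits with samples left out), *Plxnb2* without control replicate 1 (0.00063; -0.082 to 0.00063), *Unc5d* without control replicate 4 (-0.013), CKO replicate 2 (-0.064) or CKO replicate 4 (-0.020; -0.064 to 0.21), *Cntn1* without CKO replicate 1 (0.00024; -0.080 to 0.00024) and *Chl1* without control replicate 3 and CKO replicate 1 (-0.051; -0.051 to 0.18).

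The count of members that rose was 13, and it was 23 by DESeq2, 22 with no filter on low counts (3.39% of all genes rose), 32 at an adjusted p below 0.05 (15.9% of all genes) and 21 without control replicate 3 and CKO replicate 1. Members that fell were 3, and 5 at an adjusted p below 0.05 (17.4% of all genes). The other axon guidance genes that rose were 16, and 31 at 0.05 and 26 without both samples. Those that fell were 1, and 3 by DESeq2 or with library totals, 2 with median-of-ratios size factors, no filter or filterByExpr, 7 at 0.05 and 6 without both samples. With 1 sample left out, the counts ran from 10 to 14, from 1 to 3, from 5 to 22 and from 0 to 2 in the same order. Calls over all genes, in either direction, ran from 686 to 1553 in these fits. Without CKO replicate 4, 10 members rose and 264 of 13825 genes did, and without control replicate 3, 14 members and 707 of 13886 genes. In these fits 7 to 12 of the other genes were below 0 at an unadjusted edgeR p below 0.05. Members that fell were 1 without control replicate 1, CKO replicate 2 or CKO replicate 4, where *Plxnd1* and *Sema3f* were not called. The cause of these differences was not tested.

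Samples with the same number did not consistently deviate together (correlations 0.142, -0.154, 0.0633 and -0.116 for numbers 1 to 4). Between samples with different numbers the correlations ran from -0.26 to 0.248. These values show no pairing by number, but they cannot exclude that samples with the same number shared a litter or day. With the replicate number as a block, 11 members rose and 3 fell (*L1cam* and *Unc5b* were not called), and of the other genes 7 rose and 0 fell (8 were below 0 at an unadjusted edgeR p below 0.05), while calls over all genes were 676 rather than 1196. *Sema3f* was not called with embryo sex as a covariate.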

Other observations

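At an edgeR adjusted p below 0.05, 32 of the 56 genes rose and 5 fell, where 15.9% and 17.4% of all genes did. These counts and shares include the calls below 0.001. Without those calls, 19 of the 56 genes lay above 0 and 2 lay below it. Those with the smallest adjusted p were *Sema7a*, a lipid-anchored semaphorin (506.7 ± 41.4 normalized counts in the CKO and 363 ± 40.4 in controls, SD, n = 4 each; log2FC 0.48, edgeR adjusted p = 0.0017), and *Nrp2*, the neuropilin that binds Sema3f (297 ± 32.3 and 216 ± 11.1; log2FC 0.47, edgeR adjusted p = 0.0036). *Nrp2* thus lay higher in all 4 CKO samples while its ligand gene *Sema3f* fell, by a call lost in 6 of 8 fits with 1 sample left out. The A-type plexins *Plxna4* (log2FC 0.37, edgeR adjusted p = 0.0059) and *Plxna3* (log2FC 0.54, edgeR adjusted p = 0.0075) were in the same group, whereas *Plxna2* (log2FC 0.13, 95% interval -0.09 to 0.36) and *Plxnc1* (log2FC -0.07, 95% interval -0.20 to 0.07) were not. The 2 below 0 were *Ntn1* and *Ncam1*.

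Summed per kb of exon, the Unc5 receptors and *Dcc* gave 486, 430.5, 478 and 522 in CKO replicates 1 to 4, against 329, 306, 204 and 274.5 in control replicates 1 to 4, with no overlap. Within that group the ratio of *Unc5b* to *Dcc*, again per kb and chosen after the values were seen, was 0.655, 0.577, 0.925 and 0.701 in the CKO, against 0.686, 0.401, 0.591 and 0.440 in controls, and the genotypes overlapped. For the netrins the sums overlapped as well (112 to 125 in the CKO and 96.5 to 122 in controls).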
